A study of Mus musculus with 186 samples.

Results

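Cultures of mouse cortical neurons were stimulated for 6 h with the protein synthesis inhibitor cycloheximide present, and 298 captured genes were compared with those of unstimulated cultures that also had the drug. The comparison takes 4 of the 186 samples of the series, the cycloheximide columns of its experiment with this drug, with 2 cultures in each group. The neurons came from CD1 embryos at E16.5 and were kept for 7 to 8 days in vitro. The groups were unstimulated with CHX (cycloheximide), stimulated for 6 h (labelled sustained, 360 min) with CHX, and the same pair of conditions with DMSO as vehicle, also 2 cultures each. All 8 libraries hold total RNA enriched with baits for activity-regulated genes, and the labels name no transgene or deletion in any group. The agent used to stimulate, the dose of CHX, the time for which unstimulated cultures had it, and a measure of the protein synthesis left are not given in the sources used here. Nothing in the labels says that the 2 cultures of a group came from separate dissections, so p-values measure only the spread between these samples, which may be technical.

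Neuronal activity raises transcription in waves. Primary response genes are switched on by factors that are already in the cell, such as CREB, SRF and MEF2, and need no new protein. Many of them, the Fos, Egr and Nr4a genes and Npas4 among them, encode transcription factors, and secondary response genes wait for such newly made proteins. Cycloheximide stops ribosomes from elongating, so a transcript that still rises with the drug does so without new protein as far as the block is complete. The drug is also known to prolong the life of some short-lived transcripts in many cell types.

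Each value is a signal, the reads of a gene divided by the geometric mean of 47 control genes of the same panel, so that 1 is the typical level of a control gene. The signal is not per length, so levels are compared between samples and not between genes. Libraries of the experiment held 1253748 to 7695002 reads (median 2573197.5), and at most 4 of the 298 genes had no read. The 2 libraries of a group differed by more than 1 on the log2 scale for 16 of the 283 genes tested in unstimulated vehicle, 15 in unstimulated CHX, 29 in stimulated CHX and 63 in stimulated vehicle. The pair of stimulated vehicle libraries thus stood further apart than the others. No cell type marker is in the panel. In introns of 4 unstimulated total RNA libraries of the series the neuronal markers summed to between 2740 and 3760 RPM, with Map2 alone at a mean of 2390. The astrocyte markers summed to between 352 and 473 RPM. Those of the oligodendrocyte lineage summed to between 69.7 and 143 RPM, and progenitor markers to between 34.4 and 74.0. Microglial markers summed to between 3.79 and 5.13 RPM. The endothelial ones summed to between 1.08 and 1.43 RPM, with Cdh5 at 0 and 2 of 3 genes detected in all 4 libraries. Fewer cells of a type and less RNA per cell cannot be told apart in such cultures, and whether the drug changed the makeup of the cultures was not tested.

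With protein synthesis blocked, 6 h of activity raised 155 of the 283 genes tested (54.8%) and lowered 3 (1.06%). The median change was 1.27 on the log2 scale, and 25 genes rose by more than 4 on that scale. The same stimulus raised 209 genes (73.9%) and lowered 2 (0.707%) in vehicle, with a median of 1.85. Both groups of the CHX comparison were apart, with the stimulated pair higher, for 194 genes (68.6%), and the stimulated pair was lower for 22 (7.77%). The test was limma on log2 of the signal plus 0.0115, with all 8 libraries in the fit and Benjamini-Hochberg adjustment over the 283 genes at 0.05. The other 15 genes had a mean below the added value and were not tested. Changes are relative to the control genes, of which 2 of 47 rose (Chga and Mvk) and 2 fell (Alg12 and Nr3c1) with CHX. The control genes had a median change of -0.01, an SD of 0.52 and a range of -1.12 to 1.49. The scale sets their geometric mean alike in every library. Their central change is therefore fixed by the scale and does not show whether they moved together. Scaling the libraries on the median of all genes in place of the control genes shifted the median CHX response by -1.53 (log2), and then 66 genes rose and 106 fell (38.4% of calls upward in place of 98.1%). In vehicle 40 then rose and 68 fell (37.0% upward in place of 99.1%). These 66 were among the 155. That scale holds the median of the panel alike in every library, and 236 of the 283 genes tested are not control genes. Where most of the panel rises, many genes must then fall on it. A fall on that scale is thus relative to the panel median and not by itself a lower level of RNA. Of the 155, 114 also rose without each of the 8 libraries in turn.

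Most genes that rose in vehicle also rose with the drug. In all, 142 genes rose in both, which is 67.9% of those that rose in vehicle and 91.6% of those that rose with CHX. Another 67 rose in vehicle and did not pass with CHX, 13 rose with CHX and did not pass in vehicle, and 61, 44 of them control genes, rose in neither. On the panel median scale 28 genes rose in both and 12 rose in vehicle and did not pass with CHX. Missing the threshold is not a test of a difference, so the difference of the responses (CHX minus vehicle) was tested for each gene in the same fit. It passed for 45 genes, larger with CHX for 14 (4.95%) and smaller for 31 (11.0%), and 28 of the 31 were among the 67. For the other 39 of the 67 the difference did not pass. The balance turned on the panel median scale, where the difference was larger for 20 genes and smaller for 13 (60.6% larger in place of 31.1%). These counts depend on single libraries too. The number larger was 5 and 9 without stimulated CHX replicates 1 and 2, 6 and 7 without unstimulated CHX replicates 1 and 2, and 22 without stimulated vehicle replicate 2. The number smaller was 10, 14, 9, 6 and 50 without the same libraries and 14 without unstimulated vehicle replicate 2. The difference passed without each of the 8 libraries in turn for 4 of the genes with a larger response, Cwc25, Gpx8, Coq10b and Sstr2, and for 5 with a smaller one, Acan, Dennd2c, Kcna1, Per2 and 9430020K01Rik. The last of these is named for this reason, after its values were seen.

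**Figure D1:**
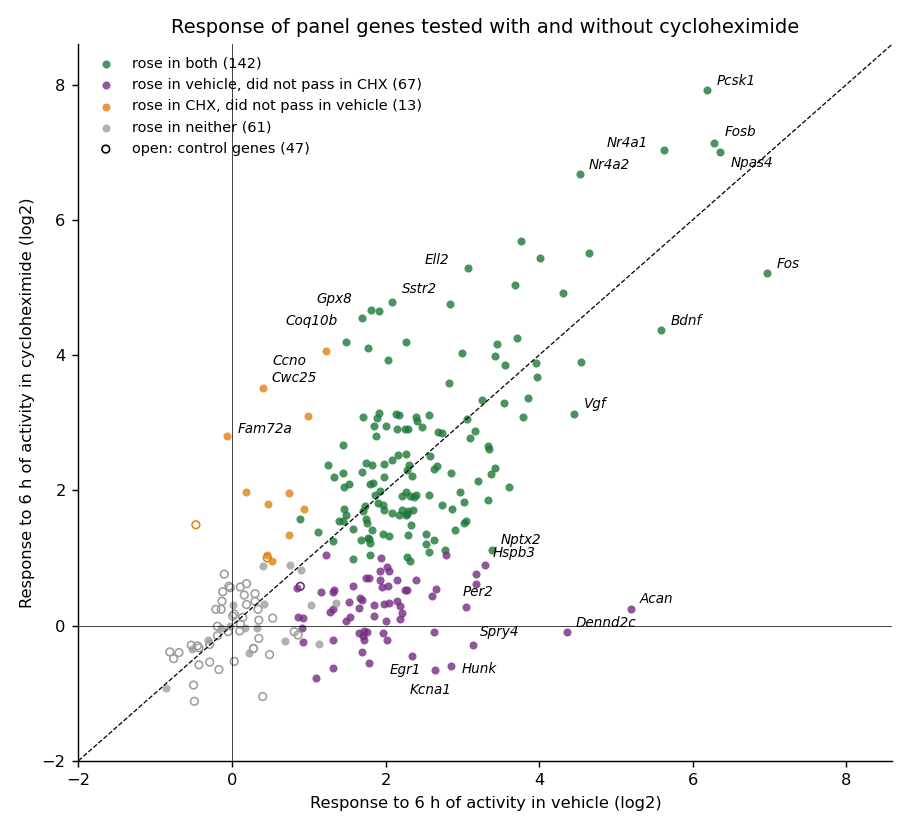
Each point is 1 of the 283 genes tested, with its log2 response to 6 h of activity in vehicle (x axis) and in cycloheximide (y axis), coloured by which responses passed an adjusted p of 0.05, with control genes open. The dashed line marks equal responses. Pcsk1 lies highest at 7.92, the group from Cwc25 to Sstr2 lies above the line, and Acan and Dennd2c lie far right with responses in cycloheximide of 0.25 and -0.10.

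The 4 largest rises with CHX in the fit, on log2 of the signal plus the added value, were those of Pcsk1, Fosb, Nr4a1 and Npas4. The added value lies above both unstimulated CHX values of Fosb (0.00897 and 0.00480), so it lowers the fitted rise of this gene. The unstimulated CHX values of Npas4 (0.0121 and 0.00870) lie close to the added value, so its fitted rise is lowered too. Fitted changes of other genes with signals near the added value, such as Ptgs2, Acan and Fam72a, are made smaller likewise. By the ratio of the means Fosb rose most of these 4, 410-fold with CHX. That ratio was 954 in vehicle, while the fitted Fosb difference was 0.86 and did not pass. Pcsk1 encodes the convertase that cuts prohormones and neuropeptide precursors. It stood at 0.0770 and 0.121 in the unstimulated CHX cultures and at 35.0 and 19.7 after 6 h, a rise of the means of 276-fold (log2 7.92 ± 0.41, SE, adjusted p = 3.74e-08). The vehicle values were 0.0911 and 0.164 before and 9.41 and 10.2 after. Both stimulated CHX values lie above both stimulated vehicle values, but the difference of the responses, 1.73, missed the threshold (adjusted p = 0.0635, 95% interval 0.46 to 2.99). Npas4, a transcription factor gene specific to neurons, went from 0.0121 and 0.00870 to 2.25 and 3.47 with CHX, and from 0.00960 and 0.0130 to 2.08 and 1.63 in vehicle. Its response was 7.00 ± 0.35 with the drug, with a difference from vehicle of 0.66 (adjusted p = 0.450, interval -0.43 to 1.74).

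The 250 bases before the RefSeq start site of genes from each kind of response are shown so that their promoters can be read beside the values. The genes are the 4 largest rises (Pcsk1, Fosb, Nr4a1 and Npas4), the pair with the largest positive differences from vehicle (Cwc25 and Fam72a), and the pair with the largest vehicle rises that did not pass with CHX (Acan and Dennd2c, the latter at the first of its 2 listed starts). They are from GRCm38.p6 (RefSeq), each in the direction of its gene. Capitals mark, on either strand, the cAMP response element TGACGTCA, its part TGACG, which the full element contains, the AP-1 site TGANTCA and the EGR site GCGNGGGCG. The CArG box was searched for too.
Pcsk1 (chr13:75089607-75089856, plus strand): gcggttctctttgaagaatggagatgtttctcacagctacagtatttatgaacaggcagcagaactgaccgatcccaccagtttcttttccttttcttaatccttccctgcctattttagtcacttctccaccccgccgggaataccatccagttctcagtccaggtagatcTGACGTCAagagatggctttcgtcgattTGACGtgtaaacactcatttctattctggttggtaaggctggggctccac
Fosb (chr7:19310046-19310295, minus strand): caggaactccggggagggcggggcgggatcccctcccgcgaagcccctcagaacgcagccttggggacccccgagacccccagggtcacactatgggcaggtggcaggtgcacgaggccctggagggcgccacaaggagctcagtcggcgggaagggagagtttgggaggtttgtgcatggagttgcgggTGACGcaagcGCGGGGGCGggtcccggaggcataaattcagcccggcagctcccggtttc
Nr4a1 (chr15:101266596-101266845, plus strand): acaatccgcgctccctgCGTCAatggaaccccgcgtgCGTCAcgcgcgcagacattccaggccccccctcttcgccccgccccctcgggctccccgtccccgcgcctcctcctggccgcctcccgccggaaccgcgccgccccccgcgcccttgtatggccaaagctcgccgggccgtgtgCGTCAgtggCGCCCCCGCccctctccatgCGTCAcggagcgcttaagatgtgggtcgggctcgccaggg
Npas4 (chr19:4989972-4990221, minus strand): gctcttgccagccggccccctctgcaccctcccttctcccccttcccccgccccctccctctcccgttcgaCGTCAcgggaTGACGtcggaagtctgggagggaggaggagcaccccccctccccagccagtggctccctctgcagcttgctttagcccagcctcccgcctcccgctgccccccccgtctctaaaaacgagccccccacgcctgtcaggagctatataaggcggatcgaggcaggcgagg
Cwc25 (chr11:97766614-97766863, minus strand): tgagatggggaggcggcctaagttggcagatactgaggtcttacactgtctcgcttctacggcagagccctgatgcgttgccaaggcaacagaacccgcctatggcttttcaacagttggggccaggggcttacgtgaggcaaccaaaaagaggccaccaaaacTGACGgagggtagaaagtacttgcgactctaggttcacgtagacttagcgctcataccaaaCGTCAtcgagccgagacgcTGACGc
Fam72a (chr1:131527653-131527902, plus strand): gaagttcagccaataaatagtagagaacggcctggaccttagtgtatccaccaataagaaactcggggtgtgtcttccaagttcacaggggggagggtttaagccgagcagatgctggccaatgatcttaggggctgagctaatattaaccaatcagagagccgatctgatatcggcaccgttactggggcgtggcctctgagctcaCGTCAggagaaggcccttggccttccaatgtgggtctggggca
Acan (chr7:79052976-79053225, plus strand): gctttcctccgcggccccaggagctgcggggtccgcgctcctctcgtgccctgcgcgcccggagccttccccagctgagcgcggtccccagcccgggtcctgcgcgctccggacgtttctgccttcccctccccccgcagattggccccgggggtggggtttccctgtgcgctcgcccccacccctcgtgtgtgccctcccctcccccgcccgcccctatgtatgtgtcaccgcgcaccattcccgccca
Dennd2c (chr3:103127306-103127555, plus strand): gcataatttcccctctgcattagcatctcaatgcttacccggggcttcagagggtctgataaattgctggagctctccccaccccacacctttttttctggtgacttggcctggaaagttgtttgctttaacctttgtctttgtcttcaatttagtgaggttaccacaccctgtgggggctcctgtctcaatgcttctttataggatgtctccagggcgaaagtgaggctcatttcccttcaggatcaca

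The Pcsk1 stretch holds the full element TGACGTCA, found in 1.55% of the 32851 promoters of that table over the same length, and another TGACG. The shorter TGACG, found in 17.8% of promoters, occurs in the stretches of Fosb (1), Nr4a1 (4), Npas4 (2), Cwc25 (3) and Fam72a (1). An EGR site, found in 4.70% of promoters, lies in those of Fosb and Nr4a1. No AP-1 site (6.75% of promoters) and no CArG box (1.47%) is in these 8 stretches, and none of the motifs is in those of Acan and Dennd2c. A match is a description of letters and not a bound site. A comparison of motif shares between the classes of genes would be void, because the table holds a promoter for 77.5% of the 142 genes that rose in both and 70.1% of the 67 that did not pass with CHX.

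Among immediate-early transcription factors, 13 of 17 tested rose with CHX and 16 rose in vehicle, beside 54.8% and 73.9% of all genes tested, with median responses of 4.03 and 3.43 beside 1.27 and 1.85 over all genes tested. On the scale of the panel median 11 of them rose and 3 fell. The shares and medians of all genes tested, here and for the lists below, include the control genes. Among the 236 tested genes that are not control genes, 153 rose with CHX and 208 in vehicle. Their median responses were 1.64 and 2.02. All 3 Nr4a genes, which encode orphan nuclear receptors, rose. Nr4a1 went from 0.0790 and 0.112 to 9.63 and 19.9 (7.03 ± 0.43, adjusted p = 1.41e-07), against 2.06 and 3.74 in stimulated vehicle. Nr4a2 rose by 6.67 ± 0.53 and Nr4a3 by 5.51 ± 0.65 on the log2 scale. The AP-1 subunit genes Fosb (0.00897 and 0.00480 to 1.62 and 4.03, 7.13 ± 0.44) and Fosl2 (0.353 and 0.302 to 15.3 and 13.8, 5.43 ± 0.46) rose as well, and the difference from vehicle did not pass for any of these 5 genes. Klf4, a zinc finger factor, rose from 0.0332 and 0.0404 to 0.980 and 1.71, more than in vehicle by 1.92 (adjusted p = 0.0462), a difference that passed in 1 of the 8 fits that each leave out a library (adjusted p up to 0.158, without stimulated CHX replicate 2).

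Fos, Egr1 and Egr2 had responses that were smaller with CHX, and each had a raised starting level with the drug. Fos, the founding AP-1 subunit, stood at 1.06 and 1.34 in unstimulated CHX cultures against 0.0230 and 0.0303 in unstimulated vehicle. It reached 42.4 and 46.6 with CHX and 4.21 and 5.41 in vehicle after 6 h, so the highest levels are those of the CHX pair although the rise (5.21 ± 0.34) was below that of vehicle (6.97, log2 difference -1.76, adjusted p = 0.0320). Egr1, a zinc finger factor, stood at 2.00 and 1.77 unstimulated and at 1.04 and 1.81 stimulated with CHX, and these ranges overlap. Its vehicle values were 0.0316 and 0.0109 before and 0.250 and 0.0832 after, all below every CHX value. Egr2 stood at 1.76 and 1.65 before and 1.28 and 1.94 after 6 h with CHX, and at 0.0194 and 0.0172 before and 0.0772 and 0.0889 after in vehicle. The CHX responses of Egr1 (-0.45 ± 0.51, adjusted p = 0.500) and Egr2 (-0.11 ± 0.34, adjusted p = 0.810) did not pass. The difference of the responses was -2.79 for Egr1 (adjusted p = 0.0280) and -1.77 for Egr2 (adjusted p = 0.0324). Those differences passed in 2 of 8 fits leaving out a library for Fos, and in 3 of 8 for Egr1 and for Egr2. The highest adjusted p was 0.130 for Fos (without unstimulated vehicle replicate 1), 0.133 for Egr1 (without stimulated CHX replicate 1) and 0.100 for Egr2 (without unstimulated vehicle replicate 2). Egr3 (-0.03) did not pass with CHX or in vehicle (0.33), though it was raised at 60 min in separate cultures, and Csrnp1 rose in vehicle and did not pass with CHX (1.04 ± 0.61, adjusted p = 0.182). Egr4 was not tested. It was read at 0.00112 and 0.00379 unstimulated and 0.0292 and 0.0416 stimulated with CHX.

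**Figure D2:**
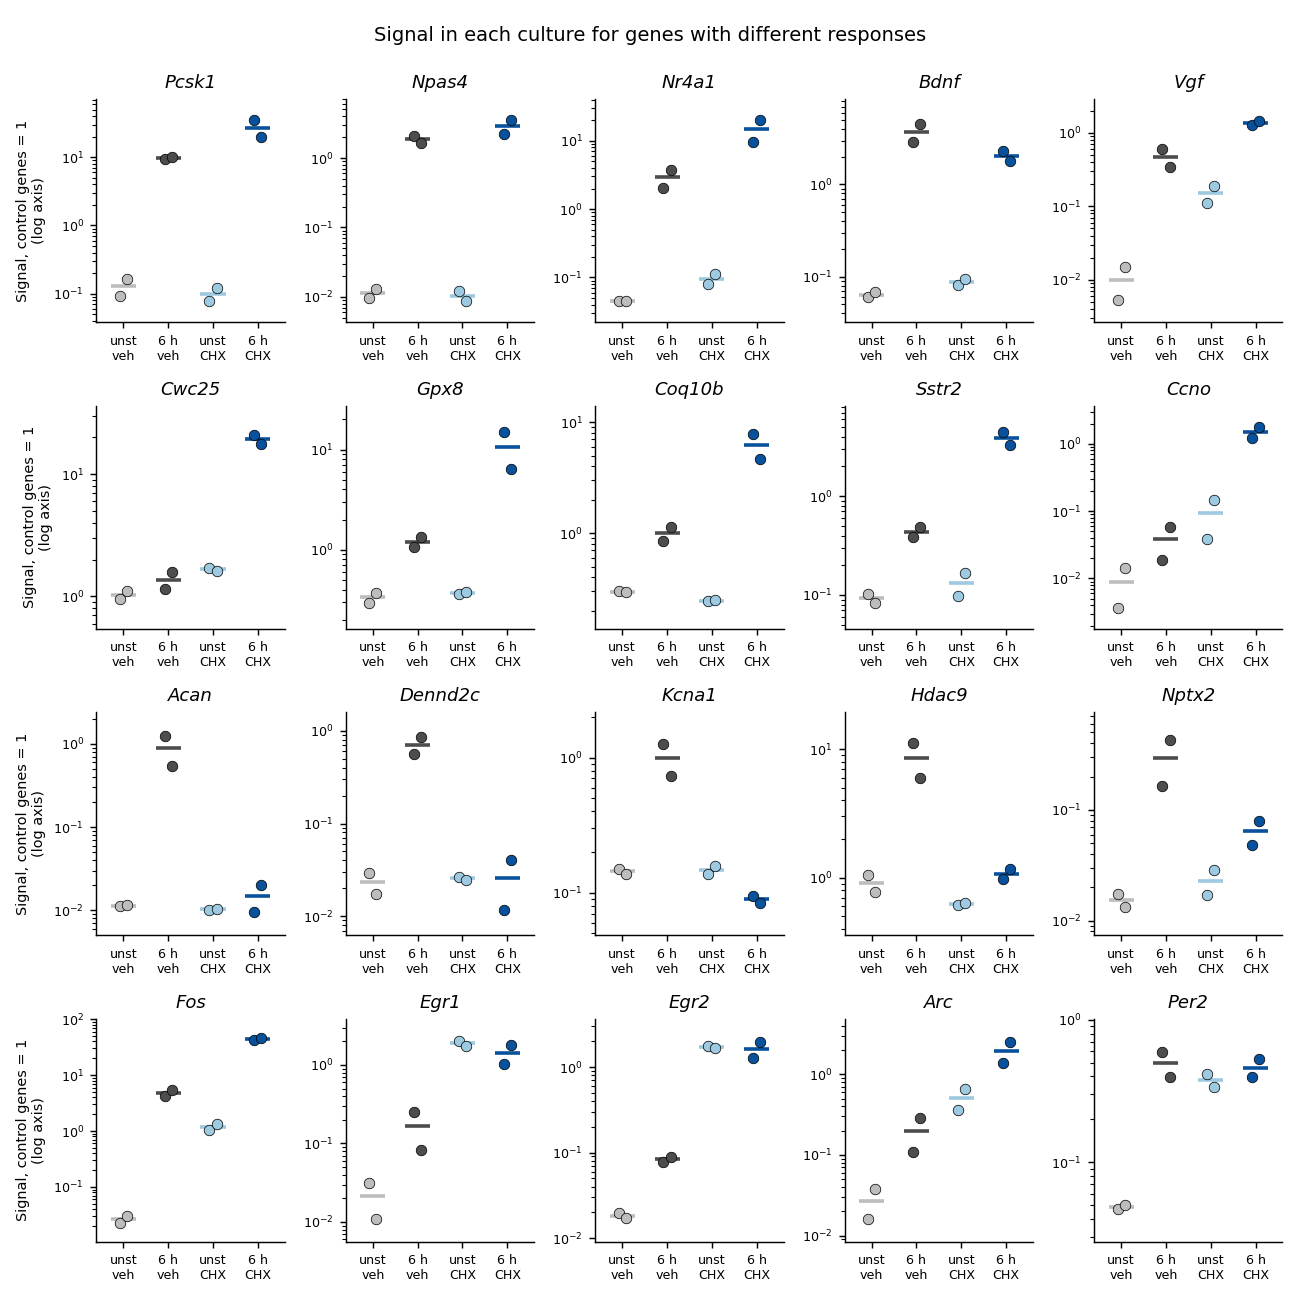
Signal in each of the 8 cultures for 20 genes, on a log axis where 1 is the geometric mean of the control genes, with the 2 cultures of a group as points and their mean as a line. The top row shows genes that rose in both, the second genes with larger or added responses in cycloheximide, the third genes with smaller responses in cycloheximide, and the bottom row genes that started higher with the drug, with Egr1 and Egr2 alike before and after stimulation in cycloheximide.

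Of the feedback regulators of the ERK and other MAP kinase pathways 5 of 8 rose with CHX, a share near the 54.8% of all genes tested, and 8 of 8 rose in vehicle, beside 73.9% (medians 1.53 and 2.16). On the panel median scale 1 rose and 2 fell. On the scale of the control genes, 153 of the 236 tested genes that are not control genes rose with CHX and 208 in vehicle. Errfi1, an inhibitor of the EGF receptor, went from 0.639 and 0.637 to 6.14 and 5.13 (3.11 ± 0.33, adjusted p = 8.32e-06), and the ERK phosphatase gene Dusp6 from 1.63 and 2.58 to 11.5 and 12.2 (2.52 ± 0.41), a rise that missed the threshold on the panel median scale (adjusted p = 0.0525). Dusp5 rose by 2.09 ± 0.66 (adjusted p = 0.0158), but not without unstimulated CHX replicate 1 (1.73, adjusted p = 0.116) or stimulated CHX replicate 2 (1.07, adjusted p = 0.269). Spry4, an inhibitor of receptor tyrosine kinase signalling, stood at 0.265 and 0.256 before and 0.148 and 0.301 after 6 h with CHX, while in vehicle it went from 0.0729 and 0.0349 to 1.02 and 0.285. The log2 difference of its responses was -3.43 (adjusted p = 0.0140), a value that passed in 4 of 8 fits leaving out a library (adjusted p up to 0.110, without stimulated CHX replicate 1). Dusp14 rose in vehicle and did not pass with CHX (0.58 ± 0.61).

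All 6 cAMP and CREB feedback genes tested rose with CHX and in vehicle, beside 54.8% and 73.9% of all genes tested (medians 2.69 and 3.12), 3 of them also on the panel median scale. Crem, whose short products repress cAMP response elements, went from 0.0748 and 0.116 to 4.61 and 2.51 (5.03 ± 0.38, adjusted p = 7.46e-07), and Rgs2, which turns off G proteins, from 0.209 and 0.227 to 2.51 and 3.36 (3.67 ± 0.37). Sik1, a kinase that holds CREB coactivators in the cytoplasm, rose by 3.08 ± 0.41. The weakest were Gem (2.05 ± 0.45) and Sik3 (1.27 ± 0.37, adjusted p = 0.0101). Sik3 missed the threshold without unstimulated CHX replicate 2 (1.13, adjusted p = 0.0766) or stimulated CHX replicate 2 (1.24, adjusted p = 0.0511), and its response was -0.26 on the panel median scale. The 9 growth arrest and turnover regulators all rose with CHX and 7 rose in vehicle, against the same shares of all genes (medians 2.33 and 1.92), with 2 rising on the panel median scale. Gadd45b, a stress-induced gene with a part in MAP kinase signalling and DNA demethylation, went from 0.233 and 0.383 to 9.27 and 6.51 with CHX and from 0.0506 and 0.0575 to 0.110 and 0.497 in vehicle. The difference, 2.72 (adjusted p = 0.0357), passed in 3 of 8 fits leaving out a library (adjusted p up to 0.182, without stimulated CHX replicate 1). Fbxo33, an F-box gene, rose by 3.13 ± 0.33, Gadd45g by 2.51 ± 0.45 and Ppp1r15a, which recruits a phosphatase to the initiation factor eIF2α, by 2.40 ± 0.49. Sertad1 (2.33 ± 0.66, adjusted p = 0.00885) missed the threshold without unstimulated CHX replicate 1 (1.59), stimulated CHX replicate 1 (2.56) or stimulated CHX replicate 2 (2.10, adjusted p up to 0.128).

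Secreted factors and peptide processing genes rose with CHX in 13 of 15 tested and in vehicle in 15 of 15, beside 54.8% and 73.9% of all genes tested (medians 2.30 and 2.91), and on the panel median scale 7 rose and 1 fell. Bdnf, the neurotrophin gene, went from 0.0806 and 0.0943 to 2.32 and 1.78 with CHX and from 0.0595 and 0.0680 to 2.87 and 4.52 in vehicle. Both stimulated CHX values lie below both stimulated vehicle values, and the difference of the responses did not pass (-1.21, adjusted p = 0.117, interval -2.31 to -0.12). Adcyap1, which encodes the neuropeptide PACAP, went from 0.0113 and 0.0228 to 0.802 and 0.869 (4.92 ± 0.35, adjusted p = 4.40e-07), from a start that was lower with the drug (log2 difference -2.02, adjusted p = 0.00224). The granin genes Scg2 (1.28 and 1.57 to 16.3 and 13.0) and Vgf (0.112 and 0.187 to 1.29 and 1.44) rose from starts that the drug had raised. Nptx2, a secreted pentraxin that gathers AMPA receptors, went from 0.0172 and 0.0286 to 0.0486 and 0.0793 with CHX and from 0.0175 and 0.0132 to 0.165 and 0.427 in vehicle. Its CHX rise only just passed (1.12 ± 0.45, adjusted p = 0.0489). The difference from vehicle, -2.25 (adjusted p = 0.0330), passed in 3 of 8 fits leaving out a library (adjusted p up to 0.148, without stimulated CHX replicate 1). The CHX response was -0.41 on the panel median scale, and it missed the threshold without any 1 of the 4 CHX libraries (0.83 to 1.42, adjusted p up to 0.284). Stc2 (-0.39 ± 0.32) and Igf1 (0.71 ± 0.42), a glycoprotein hormone and a growth factor gene, did not pass with CHX. Pthlh, the other panel gene of this list, was not tested.

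Of the synaptic, dendritic and matrix genes 9 of 14 rose with CHX, a share near the 54.8% of all genes tested, and 13 of 14 rose in vehicle, beside 73.9% (medians 2.02 and 2.38). On the panel median scale 5 rose and 3 fell with CHX. Ptgs2, the inducible prostaglandin synthase gene, went from 0.00548 and 0.0152 to 0.847 and 1.38 (5.68 ± 0.50, adjusted p = 1.82e-06). The synaptic scaffold gene Homer1 went from 6.67 and 5.17 to 84.8 and 41.6, and Rasgrp1, an activator of Ras, from 0.0672 and 0.0990 to 0.710 and 0.921. Arc, which drives endocytosis of AMPA receptors, went from 0.363 and 0.661 to 1.37 and 2.54 (1.90 ± 0.51, adjusted p = 0.00695), with vehicle values of 0.0162 and 0.0375 before and 0.109 and 0.289 after. The Arc rise missed the threshold without unstimulated CHX replicate 1 (1.48, adjusted p = 0.0816) or stimulated CHX replicate 2 (1.46, adjusted p = 0.119). At the other end was Acan, which encodes aggrecan, the core proteoglycan of perineuronal nets. It went from 0.0112 and 0.0116 to 1.26 and 0.541 in vehicle, and stood at 0.0102 and 0.0104 before and 0.00961 and 0.0202 after 6 h with CHX. The difference of -4.95 (adjusted p = 0.000738, interval -6.23 to -3.66) was the lowest of the 283. Serpinb2, a protease inhibitor gene, rose in vehicle and did not pass with CHX (0.61 ± 0.57) except without stimulated CHX replicate 2 (1.58, adjusted p = 0.0394), and neither did Adamts8 (-0.16 ± 0.47), a matrix protease gene.

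Among channels, transporters and receptors 4 of 11 tested rose with CHX and 9 in vehicle, beside 54.8% and 73.9% of all genes tested. Their median response was 0.34 with CHX against 1.97 in vehicle, and on the panel median scale 2 rose and 6 fell with CHX. The 236 tested genes that are not control genes had medians of 1.64 and 2.02, and 153 and 208 of them rose. Kcna1, a delayed rectifier potassium channel gene, stood at 0.138 and 0.158 before and 0.0954 and 0.0833 after 6 h with CHX, and went from 0.150 and 0.138 to 1.26 and 0.730 in vehicle (difference -3.30, adjusted p = 0.00210, interval -4.40 to -2.20). Kcna4, a channel gene of the same family, and the orphan receptor gene Gpr63 also had smaller responses (-2.09 and -1.87), that of Gpr63 in 1 of 8 fits leaving out a library (adjusted p up to 0.149, without stimulated CHX replicate 2). Kcnq3, a control gene that encodes an M-current subunit, did not pass with CHX (-0.09 ± 0.47), and Gprc5a was not tested. The 4 that rose include Sstr2, a somatostatin receptor gene, which went from 0.0983 and 0.167 to 4.50 and 3.31 with CHX and from 0.103 and 0.0833 to 0.384 and 0.487 in vehicle. Its response was larger with CHX by 2.70 (adjusted p = 0.00863, interval 1.56 to 3.83). Slc2a3, the neuronal glucose transporter gene, rose by 2.95 ± 0.39, and Kcnf1, a modulatory potassium channel subunit gene, by 1.67 ± 0.40, which missed the threshold without unstimulated CHX replicate 1 (1.28, adjusted p = 0.0552).

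The small remaining lists held 2 genes each. Per1 and Per2, repressors in the circadian clock, both started higher with the drug. Per1 went from 0.702 and 0.877 to 1.66 and 3.11 with CHX (1.52 ± 0.42, adjusted p = 0.00805), a rise that missed the threshold without unstimulated CHX replicate 1 (1.36, adjusted p = 0.0664) or stimulated CHX replicate 2 (1.07, adjusted p = 0.0997) and was -0.02 on the panel median scale. Per2 stood at 0.419 and 0.339 before and 0.398 and 0.526 after 6 h with CHX, ranges that overlap, against 0.0473 and 0.0499 before and 0.597 and 0.394 after in vehicle (difference -2.77, adjusted p = 0.00515). Of the stress genes, Herpud1, of the endoplasmic reticulum degradation machinery, rose with CHX (1.73 ± 0.42) and did not pass in vehicle (0.94). Chac1, a glutathione-degrading enzyme gene, rose in vehicle and did not pass with CHX (-0.78 ± 0.45). The difference of the responses did not pass for Herpud1 (0.79, adjusted p = 0.45) or Chac1 (-1.88, adjusted p = 0.0648). Their CHX responses were 0.19 and -2.31 on the panel median scale. Both rose at 360 min in separate vehicle cultures (1.77 and 1.79).

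**Figure D3:**
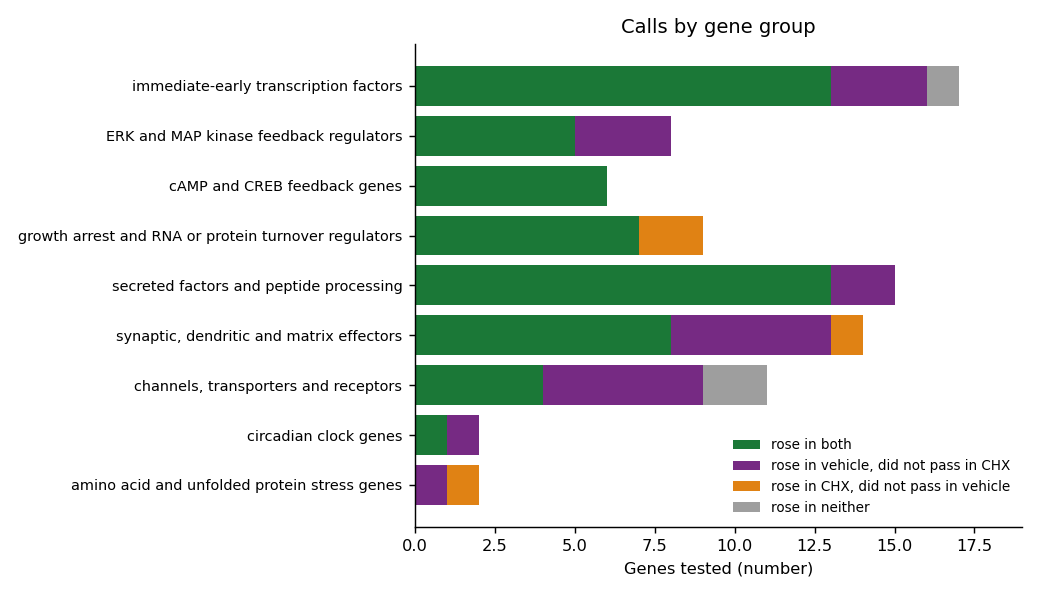
Number of genes tested in each gene group (bars, x axis), split by whether the rise passed in both conditions, in vehicle, in cycloheximide or in neither. All 6 cAMP and CREB feedback genes rose in both, and 4 of the 11 channels, transporters and receptors did.

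The genes with the largest vehicle rises that did not pass with CHX were, after Acan, Dennd2c, Hspb3, Serpinb2, Hdac9, Spry4, Per2, Hunk, Csrnp1 and Tnfrsf12a. Dennd2c, a DENN domain gene, went from 0.0293 and 0.0173 to 0.562 and 0.853 in vehicle and from 0.0263 and 0.0248 to 0.0116 and 0.0404 with CHX, where the pairs overlap (difference -4.45, adjusted p = 0.00130). Hdac9, a class IIa histone deacetylase gene, went from 1.04 and 0.767 to 11.2 and 5.98 in vehicle, and from 0.617 and 0.630 to 0.974 and 1.16 with CHX (0.76 ± 0.38, adjusted p = 0.116). Hunk, a kinase gene, stood at 0.0971 and 0.0644 before and 0.0410 and 0.0566 after 6 h with CHX, and reached 0.673 and 0.203 in vehicle. Hspb3, a small heat shock protein gene, was near the threshold with CHX (0.90 ± 0.39, adjusted p = 0.0678), and it passed without unstimulated CHX replicate 2 (1.29, adjusted p = 0.0400) and without either stimulated vehicle library (0.90, adjusted p = 0.0471). The differences of Hunk, Hdac9, Hspb3 and Serpinb2 passed in 6, 5, 5 and 3 of 8 fits leaving out a library, with adjusted p up to 0.0755 and 0.0717 (without stimulated CHX replicate 1), 0.0763 (without unstimulated CHX replicate 2) and 0.163 (without stimulated CHX replicate 2). Csrnp1 and Tnfrsf12a, a receptor of the TNF family (0.54 ± 0.58), had differences that did not pass. Over the 67 genes the median response was 1.93 in vehicle and 0.29 with CHX, and 47 had a CHX response above 0 and 2 had one above 1. On the panel median scale none rose and 51 fell, beside 66 and 106 of all genes tested. The 67 were chosen by their calls in these same responses. The lower median with CHX and the lack of rises thus follow largely from that choice and are no separate result.

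The genes whose response was larger with CHX were of mixed function. Cwc25, a splicing factor gene, went from 1.71 and 1.62 to 20.8 and 17.8 with CHX and from 0.952 and 1.10 to 1.15 and 1.59 in vehicle, where it did not pass. Its difference of 3.12 (adjusted p = 0.00210, interval 2.09 to 4.15) was the highest of the 283. Coq10b, a gene of the coenzyme Q pathway of mitochondria, went from 0.246 and 0.248 to 7.90 and 4.63 with CHX and from 0.300 and 0.293 to 0.854 and 1.14 in vehicle (difference 2.86, adjusted p = 0.00515). Gpx8, a peroxidase gene of the endoplasmic reticulum, went from 0.363 and 0.380 to 15.0 and 6.33 with CHX, against 1.06 and 1.34 in stimulated vehicle (difference 2.86, adjusted p = 0.00988). Fam72a went from 0.0173 and 0.00647 to 0.199 and 0.109 with CHX and stood between 0.0134 and 0.0300 in the 4 vehicle libraries. Ccno, an atypical cyclin gene, went from 0.0381 and 0.147 to 1.20 and 1.80 with CHX. Gltscr2, a nucleolar protein gene, went from 0.746 and 0.828 to 20.3 and 10.6 (difference 2.71, adjusted p = 0.00988), and Ell2, an elongation factor gene, from 0.118 and 0.159 to 5.54 and 6.08 (difference 2.22, adjusted p = 0.0124). The differences of Gltscr2 and Ell2 passed in 7 of 8 fits leaving out a library each, missing it without stimulated CHX replicate 1 (2.25, adjusted p = 0.0540) and unstimulated CHX replicate 1 (2.02, adjusted p = 0.0583), and those of Fam72a and Ccno passed in 6 and 3 of 8 (adjusted p up to 0.0659 without stimulated CHX replicate 1 and 0.163 without stimulated CHX replicate 2). Of these 14 genes 13 also rose with CHX on the panel median scale, beside 66 of the 283 genes tested. Their median response was 4.20 with CHX against 1.79 in vehicle. The 14 were chosen for a larger response with CHX, so the order of these medians is fixed by the choice and is no separate result.

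Some of these genes lie beside one another in the GRCm38.p6 annotation. Pcsk1 and Ell2 are neighbouring protein-coding genes, and so are Bdnf and Kif18a, of which Kif18a, a kinesin gene named here after its values were seen, went from 0.313 and 0.236 to 8.79 and 2.69 with CHX (4.10 ± 0.49). Other neighbours went apart with CHX, and they too are named after their values were seen. Ccno (4.06) lies beside Dhx29 (0.57, did not pass), and Nefl (2.53) beside Nefm (0.71, did not pass). Both genes rose with CHX in the neighbouring pairs Popdc3 and Bves, Grasp and Nr4a1, and D16Ertd472e and Chodl. The same held for Kcnj3 and Nr4a2, and for Rnf128 and Tbc1d8b. In the pairs Satb1 and Kcnh8, and Osgin2 and Ripk2, neither gene passed with CHX. Protein-coding genes overlap Gpx8 (Cdc20b), Fam72a (Srgap2), Sstr2 (Slc39a11), Nr4a2 (LOC105244150), Ppp1r15a (Tulp2) and Tnfrsf12a (Hcfc1r1). Whether the deposited counting kept to 1 strand is not stated in those sources, so their values are uncertain to that extent. Beyond the lists, the imprinted, retrotransposon-derived gene Peg10 was among the 20 largest rises, going from 0.0687 and 0.0488 to 1.17 and 1.47 (4.25 ± 0.62). In all, 26 of the 68 genes named by the rule overlap another annotated gene, these 6 a protein-coding one.

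The 3 genes that fell with CHX moved by at most 1.12 on the log2 scale. Alg12, a control gene for a mannosyltransferase, fell from 0.202 and 0.212 to 0.0859 and 0.0920 (-1.12 ± 0.32, adjusted p = 0.00885), from a start that was higher with the drug than the 0.0485 and 0.0565 of vehicle. The tight junction gene Cgn (-0.92 ± 0.34, adjusted p = 0.0381) and Nr3c1, the glucocorticoid receptor gene and a control gene (-0.88 ± 0.34, adjusted p = 0.0415), also fell. Leaving out a library ended these calls in 2 of 8 fits for Alg12 (without unstimulated CHX replicate 1 or 2), 6 of 8 for Cgn and 5 of 8 for Nr3c1, with adjusted p up to 0.0562 (without unstimulated CHX replicate 2), 0.202 (without unstimulated CHX replicate 1) and 0.160 (without stimulated CHX replicate 2). All 3 missed the threshold without unstimulated CHX replicate 1 or 2, and Alg12 was the gene that still passed without either unstimulated vehicle library.

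Whether each gene was raised at 60 or 360 min was read from separate vehicle cultures of the series, fitted by limma in the same way. These had sustained stimulation for 60 min (n = 7) and 360 min (n = 6) and were set against unstimulated ones (n = 7). There 36 of 278 genes (12.9%) were raised at 60 min and 200 (71.9%) at 360 min, with 5 lowered at 360 min. On the panel median scale 26 rose and 66 fell at 60 min (28.3% upward) and 32 rose and 80 fell at 360 min (28.6% upward in place of 97.6%), so the classes by time below hold for the scale of the control genes. Over the 275 genes tested in both experiments the vehicle response at 6 h and that of the separate cultures had a Pearson correlation of 0.916 across genes, which are not independent replicates, and 187 genes rose in both. Of the 36 genes raised at 60 min, 32 (88.9%) rose with CHX at 6 h, with a median response of 3.10 against 2.49 in vehicle. The 4 others were Egr1, Egr2, Egr3 and Abcc5, the last a transporter gene named here because the count is small. Of the 167 raised at 360 min and not at 60 min, 106 (63.5%) rose with CHX, with a median of 1.51 against 2.09 in vehicle, and 56 rose in vehicle and did not pass with CHX. Among the 72 raised at neither time, 44 of them control genes, 11 (15.3%) rose with CHX, beside 54.8% over all genes tested. The difference of the responses was larger with CHX in 4 and smaller in 3 of the 36 genes, and larger in 8 and smaller in 26 of the 167. Over all genes tested it was larger for 4.95% and smaller for 11.0%. The 8 of 167 and the 3 of 36 lie near those shares. No test of the classes against each other was made. Missing the threshold at 60 min does not show that a gene first responds later. Csrnp1 (1.47, adjusted p = 0.138) and Ccdc184 (0.70, adjusted p = 0.0718) missed it at 60 min and count among the 167. An earlier time point of the series was not used for the classes. Bdnf (0.60), Scg2 (0.98), Homer1 (0.54) and Sstr2 (0.36) did not pass at 60 min in those cultures and rose with CHX at 6 h.

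**Figure D4:**
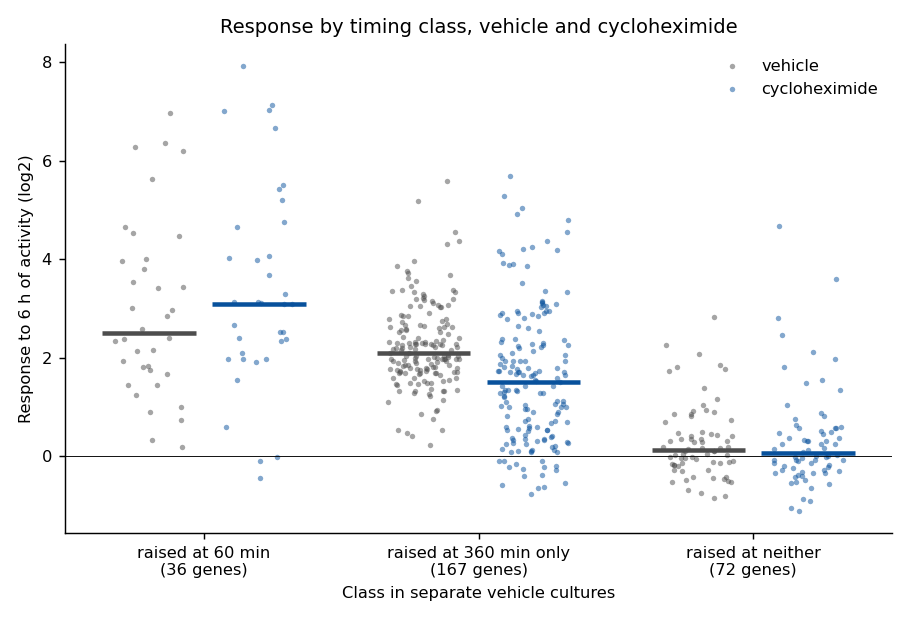
Log2 response to 6 h of activity of each gene (points) in vehicle and in cycloheximide, by whether separate vehicle cultures showed the gene raised at 60 min, at 360 min and not at 60 min, or at neither time; lines are medians. The medians of genes raised at 60 min are 2.49 in vehicle and 3.10 in cycloheximide, and those of genes raised at 360 min are 2.09 and 1.51.

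The drug changed the starting point of some genes. In unstimulated cultures 26 genes were higher (9.19%) and 6 lower (2.12%) with CHX than in vehicle, and on the panel median scale 16 and 13 were (55.2% higher in place of 81.2%). The number higher was 17 without stimulated CHX replicate 1 or 2 and 14 without unstimulated CHX replicate 2, and the number lower was 3 without unstimulated CHX replicate 1 or either unstimulated vehicle library. In all, 14 of the 26 were among the 36 raised at 60 min in the separate cultures. Of the 142 genes that rose in both conditions 17 started higher with CHX, among them Fos, Arc, Junb, Dusp1, Gadd45b, Homer1, Scg2 and Vgf, and of the 67 that did not pass with CHX 6 did, Egr1, Egr2, Gmeb2, Per2, Spry4 and Tnfrsf12a. Where a gene starts higher with the drug, a smaller response and a raised start cannot be told apart in the log2 difference. For Acan, Dennd2c, Kcna1 and Hdac9 the unstimulated CHX pair lay at or below the range of vehicle or overlapped it, with log2 differences in unstimulated cultures of -0.07, 0.11, 0.03 and -0.51, none past the threshold.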

How the data were processed

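Total RNA of the cultures was enriched with baits for 298 genes and sequenced. The deposited values are a signal made by the authors, the reads of a gene divided by the geometric mean of 47 control genes, as the file's values show: control genes have a geometric mean of 1 in each library after 0.01 read is added. The intron values used for cell type markers are deposited RPM. Per the submitters' processing notes, tools and build include STAR, SAMtools, bedtools and mm9, with versions not given in the sources used here. PCR duplicates and molecular identifiers are not described there.

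Log2 of the signal plus 0.0115 (the 10th percentile of non-zero values; 0.0111 for the separate vehicle cultures) was fitted with limma 3.58.1 in R 4.3.3, 4 groups of 2 samples with 4 residual degrees of freedom, for genes with a mean at or above the added value. P-values are two-sided and adjusted by Benjamini-Hochberg, with a threshold of 0.05. Intervals cover 95%. The limma fit was tested on simulated log values, without the added value and the filter on low means, so those steps were not covered. Libraries numbered as parts of 1 replicate in the separate cultures were averaged. Of the tables used, 38 columns were read and 23 columns of other times, stimuli or drugs were not used here. The depth limits precision for genes of low signal.

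The genes named are the 20 largest rises, the falls, the 5 largest differences each way, the 10 largest vehicle rises that did not pass with CHX, 10 fixed genes, and in each list the 3 smallest and 2 largest adjusted p. The genes and lists were chosen with earlier results of these data known. Alternatives were other added values, no filter, scaling on the panel median, the CHX samples alone, a replicate block and leaving out each library.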

Additional observations from a re-analysis of the deposited data

Results flagged for a closer look

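The response to 6 h of activity differed between CHX and vehicle for 45 of the 283 genes by the test of the difference itself (limma, adjusted p under 0.05), being larger with CHX for 14 and smaller for 31. On the panel median scale it was larger for 20 and smaller for 13. Values below are log2 differences, CHX minus vehicle.

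Among the genes named, those with a larger response with CHX were Cwc25 (3.12), Fam72a (2.87), Coq10b (2.86), Gpx8 (2.86), Ccno (2.84), Gadd45b (2.72), Gltscr2 (2.71), Sstr2 (2.70), Ell2 (2.22) and Klf4 (1.92). All but Ccno and Gadd45b had starting levels that did not pass as different between CHX and vehicle.

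Those with a smaller response included Acan (-4.95), Dennd2c (-4.45), Hunk (-3.45), Spry4 (-3.43), Kcna1 (-3.30), Serpinb2 (-2.58), Hdac9 (-2.42), Hspb3 (-2.40), Nptx2 (-2.25), Stc2 (-2.09) and Gpr63 (-1.87). The transcriptional regulators Egr1 (-2.79), Per2 (-2.77), Egr2 (-1.77) and Fos (-1.76) had smaller responses from starting levels that were raised with CHX, as was that of Spry4. The part of the raised start in these differences was not tested.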

How the results depend on the processing

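A fall on the panel median scale is relative to that median. Scaling on the median of all genes gave 66 higher and 106 lower genes for the CHX response, 40 and 68 for vehicle, 20 and 13 for the difference, 16 and 13 for CHX in unstimulated cultures, 66 lower at 60 min, 32 higher and 80 lower at 360 min, 28 genes that rose in both and 12 that rose in vehicle and did not pass with CHX. It turned the CHX response of Acan (-1.29), Csrnp1 (-0.49), Dusp14 (-0.95), Hdac9 (-0.77), Hspb3 (-0.64), Igf1 (-0.82), Nptx2 (-0.41), Per1 (-0.02), Per2 (-1.26), Serpinb2 (-0.93), Sik3 (-0.26) and Tnfrsf12a (-0.99), and an added value 4 times higher turned that of Egr3 (0.02). An added value 4 times lower gave 1 lower gene in vehicle and 9 larger differences, and no filter gave 16 genes higher with CHX in unstimulated cultures.

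Leaving out each library gave 122 to 161 higher and 0 to 4 lower genes for CHX, 195 to 207 and 0 to 3 for vehicle, 5 to 22 larger and 6 to 50 smaller differences, and 14 to 34 higher and 3 to 7 lower genes in unstimulated cultures. It turned CHX responses that did not pass with all libraries, for Acan (-0.05 to 0.54), Adamts8 (-0.48 to 0.16), Dennd2c (-0.68 to 0.49), Dusp14 (-0.05 to 1.22), Egr2 (-0.41 to 0.19), Egr3 (-0.61 to 0.56), Kcnq3 (-0.33 to 0.14), Serpinb2 (-0.36 to 1.58) and Spry4 (-0.77 to 0.20). Where a group then held 1 library, that library was assumed to vary like the others. The cause of these changes was not tested.

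The replicate numbers were not taken to pair the samples, since not every same-numbered pair correlated above 0.1 and no label used here ties a number to a dissection shared across groups. That choice is not a test of pairing, and most same-numbered pairs of the separate cultures did correlate above 0.1. Deviations of same-numbered libraries correlated at 0.704, 0.571 and 0.417 between 3 of the groups and at -0.104, 0.0691 and 0.0718 with stimulated CHX. In the separate cultures they correlated at 0.0193 to 0.669 (median 0.357, against -0.0703 for different numbers), with 16 of 19 above 0.1 and 10 of 20 samples closest to their own number. The replicate block gave 160 higher and 3 lower genes for CHX, 217 and 3 for vehicle, and 22 larger and 51 smaller differences. It gave 35 higher and 10 lower genes in unstimulated cultures. In the separate cultures it gave 41 higher and 1 lower gene at 60 min, and 207 higher and 7 lower genes at 360 min. A count model on reads recovered from the signal, planned as an alternative, was not run. With 2 libraries a group, small differences were not detectable.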
